A study of Cricetiscus sungorus with 216 samples.

Results

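The granins and the prohormone processing enzymes are the soluble cargo and the enzymes of the dense-core secretory granule. They were taken here as 10 genes, found by an exact match of the gene symbol (Chga, Chgb, Scg2, Scg3, Scg5, Vgf, Pcsk1, Pcsk2, Cpe and Pam) out of 32078 symbols in 4 tables. All 10 have rows in the pituitary gland, mediobasal hypothalamus (MBH) and dorsomedial hypothalamus (DMH) tables, and 9 in the paraventricular nucleus (PVN) table, where Scg5 has no row. The tissues came from male Djungarian hamsters kept either in long photoperiod (LD) or in short photoperiod (SD), in which this species passes through a winter state and later returns to the summer state while the days stay short. There were 9 groups of 6 hamsters, LD and 4, 8, 12, 16, 20, 24, 28 or 32 weeks of SD, and each hamster gave a library of all 4 tissues, so 54 libraries of each tissue were analysed. Replicates were separate hamsters and no hamster was sampled at more than 1 time. After the study's own terms, weeks 4 and 8 are called induction, weeks 12, 16 and 20 maintenance and weeks 24, 28 and 32 recovery. The hypothalamic samples were punches of tissue, so fewer cells of a type and less RNA per cell cannot be told apart in any value given here.

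In neurons and endocrine cells, peptide hormones are made as long precursors that are sorted into granules, cleaved and modified there, and released on demand. Granins such as chromogranin A (Chga), chromogranin B (Chgb), secretogranin II (Scg2) and secretogranin III (Scg3) aggregate in the acidic lumen and take part in granule formation, and Vgf is a neurotrophin-inducible granin that is itself cut into peptides. The proprotein convertases Pcsk1 and Pcsk2 cut precursors at pairs of basic residues, with Scg5 (7B2) as the chaperone of Pcsk2. Carboxypeptidase E (Cpe) then trims the basic residues and the monooxygenase Pam amidates the C-terminus. Secretion of pituitary hormones and hypothalamic neuropeptides in this species follows the photoperiod, and the comparisons below ask whether the RNA of this machinery did so.

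Depth differed widely between tissues. Total estimated counts per library ran from 29219 to 523544 in the pituitary gland (median 81120), from 5996 to 13208361 in the MBH, from 149289 to 9084072 in the DMH and from 159 to 998245 in the PVN (median 168902). The 10 genes took a median of 0.258% of the counts of a pituitary library, 0.117% in the MBH, 0.0107% in the DMH and 0.150% in the PVN. In each of the MBH (20 weeks), DMH (20 weeks) and PVN (LD) 1 library held no count of any of them. The gene Gm32262 took between 8.33% and 65.7% of the counts of an MBH library and between 13.5% and 69.1% in the DMH. The labelled tissues were checked by marker genes. All 9 pituitary endocrine markers were read in at least 27 of the 54 pituitary libraries, as were 6 of 7 arcuate markers in the MBH. Of 5 paraventricular markers the PVN table held only Trh and Sim1, and none of the 4 dorsomedial markers (Ppp1r17, Grp, Npvf, Gpr50) was read in 27 DMH libraries. In the MBH Ppp1r17 and Gpr50 were each read in 49 libraries and Npvf in 39. Mean Gpr50 was 11.03 CPM there against 0.0274 in the DMH, each scaled in its own table. Summed neuron and tanycyte markers were lower in the DMH too, with medians of 102 against 876 and 1.56 against 84.0 CPM. The DMH label was therefore not borne out by its 4 markers, but low levels were not particular to them.

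Levels are given as CPM, the count relative to the library's total after TMM scaling, which adjusts each library for its composition, and a gene's count is the sum over its isoform rows. That sum is not always a number of reads. Chgb, Pcsk2 and Cpe each had 1 isoform, and so did Chga outside the PVN. Scg5 had 7 in the pituitary gland, MBH and DMH, where the sum was close to 7 times the count of its highest isoform. The ratio was 9.54 to 11.8 for Vgf (12 isoforms) and 16.6 to 16.9 for Pam (21 isoforms) in the same 3 tissues. Levels are therefore not compared between genes, and the count of the highest isoform is given where a result turns on it.

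None of the genes passed an adjusted p of 0.1 in any test of change within a tissue (edgeR quasi-likelihood F-test, Benjamini-Hochberg over all symbols of the table). Over the 9 groups together 0 of 10 passed in the pituitary gland, where 9.36% of all symbols did, 0 of 10 in the MBH (0.447% of all symbols), 0 of 10 in the DMH (4.34%) and 0 of 9 in the PVN (0%). None had an unadjusted p under 0.05 in that test, and DESeq2 called none. A wave with a period of 32 weeks was found for none of them, against 5.70%, 1.72%, 3.07% and 0.533% of all symbols in the same order of tissues, again with none at an unadjusted p under 0.05. LD was set at week 0 of the wave, so LD and 32 weeks of SD share the same fitted value. The wave therefore cannot follow a difference of LD from all SD weeks. For single weeks against LD none of the genes passed in any tissue. In the pituitary gland 0.00445% of all symbols passed at each of weeks 4 to 20 and 0% later. In the MBH it was 0.00992% at weeks 4 and 12, 0.0198% at week 8, 0.0149% at week 16 and 0.00496% at each later week. In the DMH it was 0% up to week 16, 0.00917% at week 28 and 0.00458% at weeks 20, 24 and 32, and in the PVN it was 0% throughout. An unadjusted p under 0.05 at a single week was found for Vgf in the pituitary gland (weeks 4, 16, 20, 24 and 28), Scg2 in the MBH (week 32) and Pam in the DMH (weeks 20 and 32). For each tissue the 3 genes with the smallest p over the 9 groups are described in full below. Their tests of single weeks were exact permutation tests of the mean CPM (2-sided, 6 against 6, smallest possible p 0.00216), 96 in all, of which 15 had an unadjusted exact p under 0.05 and none stayed under 0.1 after adjustment (smallest adjusted p 0.173). The genes were ranked on the same libraries, which the adjustment does not cover, so these p-values are a description.

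In the pituitary gland, Vgf had the largest ratio of the highest to the lowest group mean, and its level rests on few reads. It was read in 25 of 54 libraries. In LD the 6 libraries held 0, 4.80, 0, 0, 15.3 and 0 CPM, and at 16 weeks they held 169, 195, 4.24, 487, 171 and 0 CPM. The means were 3.36 ± 6.18 (SD, n = 6) in LD and 171 ± 177 at 16 weeks, and the groups overlapped at their low ends. At 12 weeks the mean was 29.2 CPM, at 20 weeks 61.2, at 24 weeks 84.9 and at 32 weeks 31.7. The fitted log2 difference from LD was 3.06 (SE 1.46, n = 12 against 6, edgeR adjusted p = 0.644) for induction, 3.92 (SE 1.46, n = 18, adjusted p = 0.428) for maintenance and 3.53 (SE 1.44, n = 18, adjusted p = 0.492) for recovery. The unadjusted p was under 0.05 in all 3, the only pituitary gene of the 10 for which it was, and phases share the same LD libraries. At 16 weeks the exact p was 0.0390 and its adjusted value 0.267.

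Counted by its highest isoform, pituitary Vgf held 2 counts in LD, 1 each in 2 of 6 libraries, and 37 counts in 23 of 48 SD libraries, with no library above 4. In 8 libraries only 1 isoform was listed, and in 17 the sum was at least 9 times the highest isoform. Both LD libraries with a count were among the 8. At 16 weeks the highest isoform held 1, 4, 1, 4, 1 and 0 counts, and the exact p was 0.0887. With the highest isoform the adjusted p over the 9 groups was 0.918. Over the 14 alternatives it ran from 0.000458 to 1. The F-test called Vgf in the newer form of the edgeR test (0.000458), with the replicate number as a block (0.00116), without the replicates numbered 2 (0.0304) and without those numbered 3 (0.00719). Used together with the highest isoform, the newer edgeR form gave 0.985 and the replicate block 1, both added after seeing the data.

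The convertases were as sparse in the pituitary gland. Pcsk1, which cuts pro-opiomelanocortin in corticotrophs, was read in 19 of 54 libraries, in 1 of 6 in LD (38.4 CPM) and in 1 of 6 at 8 weeks (5.54 CPM). Its highest mean was 45.9 ± 43.9 CPM at 28 weeks, where the libraries held 61.0, 36.3, 115, 0, 62.8 and 0 CPM, and the 2 groups overlapped (exact p = 0.106). The log2 difference of recovery from LD was 1.78 (95% interval -0.38 to 3.94). Pcsk2 was read in 25 of 54 libraries. In LD it was read in 1 of 6 (47.97 CPM) and at 16 weeks in 4 of 6, with 0, 29.6, 21.2, 40.6, 0 and 24.2 CPM. The 16-week libraries all lay within the LD range (exact p = 0.318). For Pcsk2 the log2 difference of maintenance from LD was -0.66 (95% interval -2.07 to 0.75).

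The other 7 pituitary genes were read in at least 44 of 54 libraries. Chgb, the most evenly read granin, had group means from 396 CPM at 16 weeks to 565 CPM at 32 weeks around 550 ± 119 in LD. Scg2 was lowest in LD (366 CPM) with SD means up to 519. Scg3 was highest in LD (139 ± 53.7 CPM) and its SD means ran from 66.2 CPM upward. Chga lay between 56.1 and 114 CPM, Scg5 between 539 and 891 and Pam between 385 and 915. Cpe lay between 24.2 and 49.7 CPM. The SD within groups was 122 CPM for Chgb, 151 for Scg2 and 65.6 for Scg3, about as large as the differences between group means. The 95% intervals of the maintenance difference from LD bound what could have gone unseen, at -1.05 to 0.27 log2 for Chgb, -0.37 to 1.13 for Scg2 and -0.54 to 0.86 for Scg5.

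**Figure D1:**
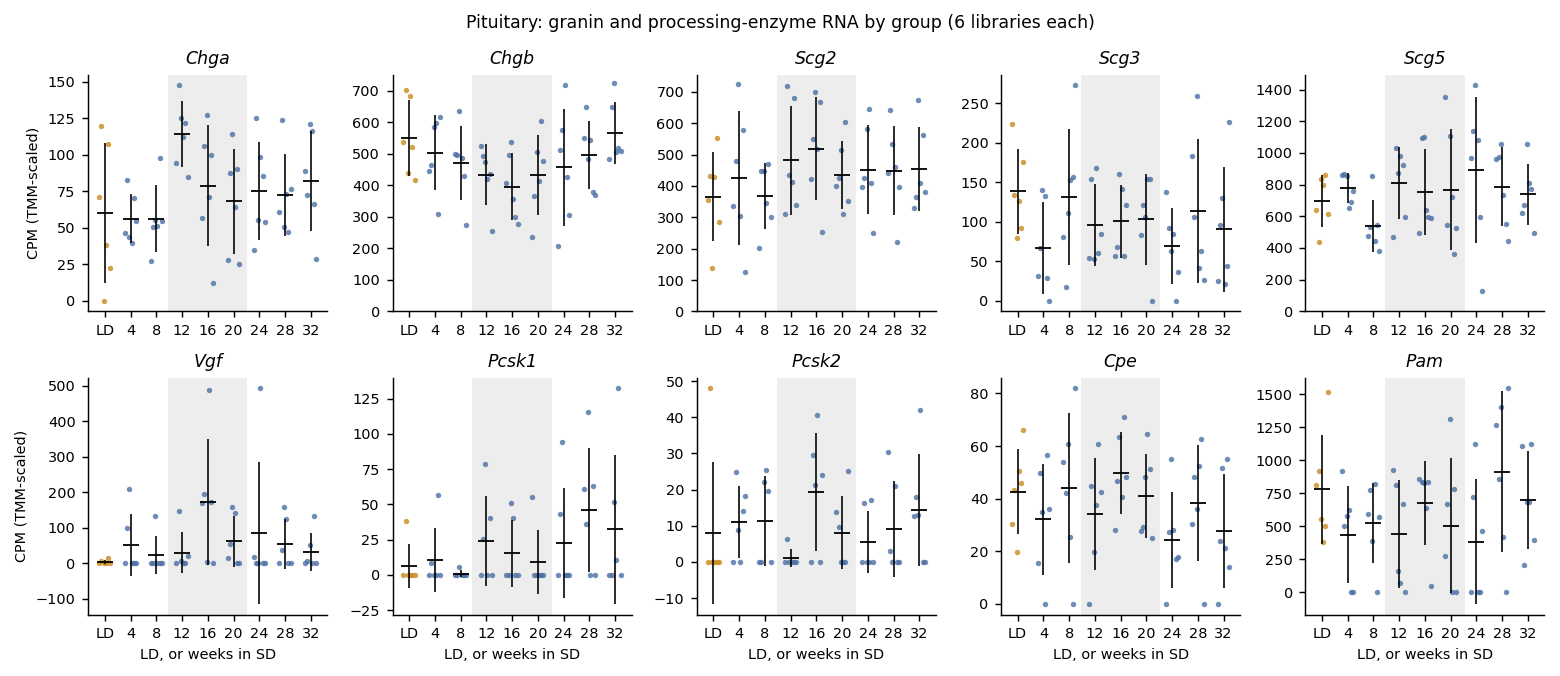
Levels of the 10 genes in the 54 pituitary libraries. Each panel is 1 gene, the x axis gives LD (orange) or the weeks in SD (blue), the y axis gives CPM on a linear scale, points are libraries, bars are the mean ± SD of 6 and grey marks maintenance. Vgf, Pcsk1 and Pcsk2 are at 0 in most libraries, and the Vgf mean of 171 CPM at 16 weeks has an SD as large as itself.

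In the MBH, Scg2 was the gene that set LD furthest apart. Scg2 is the precursor of secretoneurin. The 6 LD libraries held 154, 127, 152.2, 145, 133 and 112.97 CPM (mean 137 ± 16.0), while the weekly SD means ran from 85.1 to 112 CPM. No SD library lay above the highest LD library and 33 of 48 lay below the lowest. At 28 weeks the libraries held 104, 64.4, 112, 122, 103 and 93.0 CPM, so that 5 of the 6 were below every LD library. The exact p was under 0.05 at 7 of the 8 weeks (0.00433 at 28 weeks, 0.0931 at 24 weeks), with the same LD libraries in every test and adjusted values of 0.173 to 0.463.

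The model fitted across all genes did not call Scg2 in the MBH. The log2 difference from LD was -0.48 for induction (95% interval -0.94 to -0.03, edgeR adjusted p = 0.841), -0.40 for maintenance (-0.83 to 0.02, adjusted p = 0.849) and -0.46 for recovery (-0.89 to -0.04, adjusted p = 0.894). In the same phases 0.0447%, 0.203% and 0.169% of all symbols passed and none of the 10 genes did, Scg2 alone having an unadjusted p under 0.05, in induction and recovery. Scaling decided the exact tests. By library totals without TMM the LD mean was 139 ± 83.1 CPM and the SD mean 111 ± 63.6 (n = 48), and no week had an exact p under 0.05 (0.286 to 0.970). The share of Gm32262 had a median of 48.9% in LD and of 22.7% to 31.5% in the SD groups, with overlapping ranges (17.2% to 65.7% in LD, up to 61.1% in SD) and no test of the difference. Over 50% of counts fell to it in 3 LD libraries and in 2 each at 24 and 32 weeks. Its part in the Scg2 levels was not tested.

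The other 2 genes described in the MBH differed less. Chga held 12.7, 10.1, 14.8, 10.7, 8.95 and 13.3 CPM in LD and 12.6, 0, 5.46, 5.17, 9.08 and 7.39 at 8 weeks, with means of 11.8 ± 2.20 and 6.62 ± 4.25. At 8 weeks 4 of 6 libraries were below the lowest LD library (exact p = 0.0238, adjusted 0.208). Scg3 was lowest in LD, opposite to Scg2, at 65.3 ± 15.5 CPM. Its highest mean was 84.7 ± 9.83 CPM at 16 weeks, where all libraries lay between 72.5 and 96.0, within and above the LD range of 50.4 to 88.2 (exact p = 0.0303, adjusted 0.224). At 20 weeks 1 library, that of 5996 counts, held 0 and the mean was 84.6 CPM, and without that library it was 102 ± 14.1 (n = 5, exact p = 0.00866, unadjusted, added after seeing the data). The 20-week mean of Scg2 was 85.1 ± 52.2 CPM with that library (exact p = 0.0216) and 102 ± 35.1 without it (exact p = 0.0433), both unadjusted. For maintenance the log2 difference of Scg3 was 0.38 (95% interval -0.12 to 0.88). Among the rest, Scg5 and Pam were also highest in LD, at 624 ± 169 and 170 ± 62.4 CPM, and Pcsk2 lowest in LD at 6.86 ± 2.46 CPM, each with libraries of both photoperiods overlapping.

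**Figure D2:**
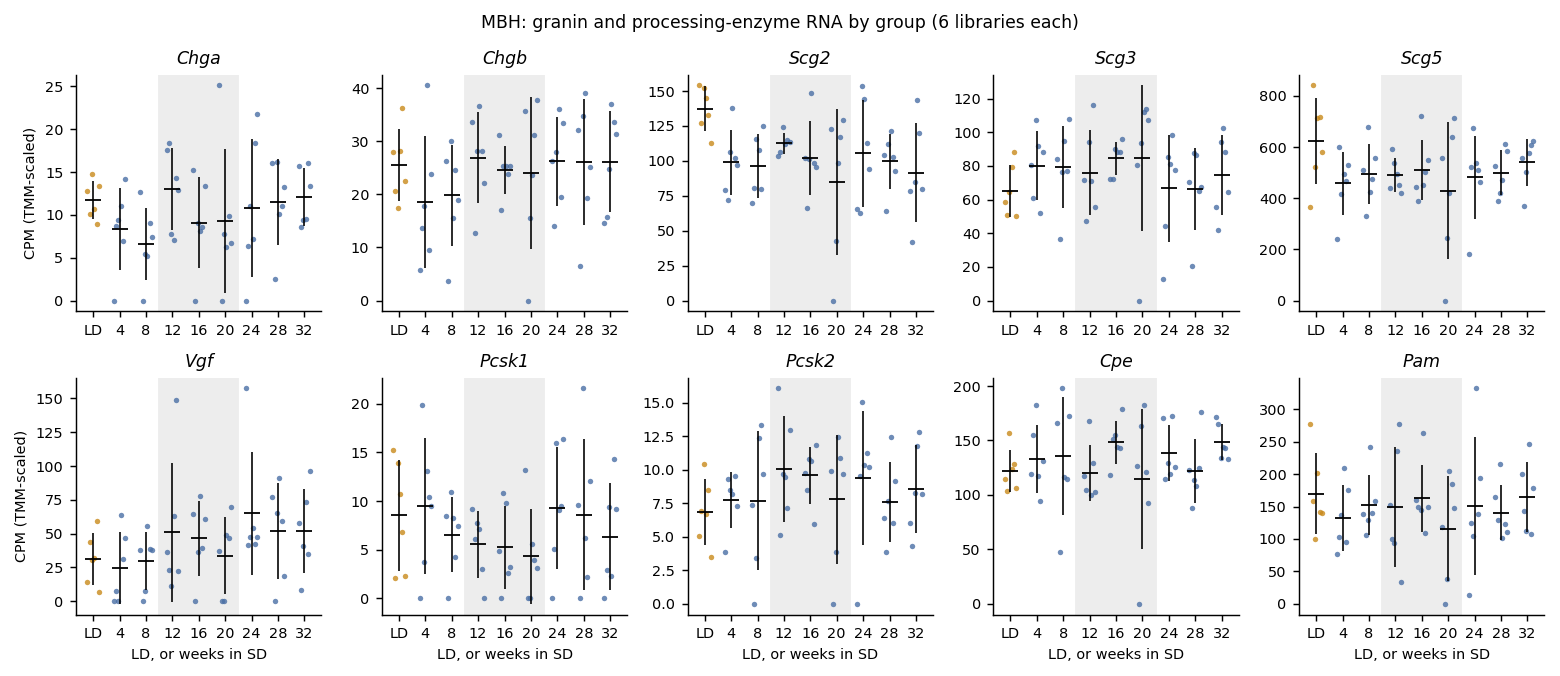
Levels of the 10 genes in the 54 MBH libraries, drawn as for the pituitary gland, with CPM on a linear y axis, points for libraries and bars for the mean ± SD of 6. The LD libraries of Scg2 sit between 112.97 and 154 CPM, and the library at 0 in nearly every panel at 20 weeks is the one of 5996 counts.

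In the DMH, Pam had the largest difference from LD. Pam makes the amidated end that many neuropeptides need for activity. LD libraries held 14.3, 50.5, 75.5, 26.7, 10.2 and 66.0 CPM (mean 40.5 ± 27.4). At 32 weeks 4 libraries held 0 and the others 0.941 and 16.2 CPM, a mean of 2.85, so that 5 of 6 lay below every LD library (exact p = 0.00649, adjusted 0.173). Over all SD groups 27 of 48 libraries lay below the lowest LD library and none above the highest. By library totals without TMM the exact p at 32 weeks was 0.0628, and at 20 weeks it was 0.0108 by either scaling, all unadjusted. By those totals Pam was 95.6 ± 98.4 CPM in LD and 32.2 ± 70.3 over all SD libraries. With TMM and without the 20-week library that held no count of the 10 genes, the 20-week exact p was 0.0216 (n = 5, unadjusted). That library was left out after seeing the data. The 32-week group had the lowest median depth of any DMH group, 689432 counts, and the part of depth was not tested. The log2 difference from LD was -1.69 for induction (95% interval -3.37 to -0.01), -1.57 for maintenance (-3.11 to -0.04) and -1.94 for recovery (-3.48 to -0.41). The edgeR adjusted p was 0.596, 0.473 and 0.382, and none of the 10 genes passed where 0.655%, 0.912% and 0.280% of all symbols did. By its highest isoform Pam held 51 counts in 6 of 6 LD libraries and 228 counts in 28 of 48 SD libraries.

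No other gene passed in a DMH phase. For maintenance all 10 genes had a log2 difference below 0, with a median of -0.63 against -0.26 over all symbols tested, and for induction and recovery 8 of 10 did, with medians of -0.42 and -0.40 against -0.17 and -0.26. Scg2 held 9.995, 11.5, 15.1, 14.6, 7.93 and 17.2 CPM in LD and 9.33, 0, 4.19, 9.30, 0.971 and 8.94 at 20 weeks. The means were 12.7 ± 3.49 and 5.45 ± 4.32 (exact p = 0.0152, adjusted 0.208). The library at 0 is the one that held no count of any of the 10 genes. Without it, left out after seeing the data, the 20-week mean was 6.55 ± 3.80 CPM (n = 5, exact p = 0.0303, unadjusted). Pcsk1 was read in 23 of 54 DMH libraries and its group means ran from 0.0915 CPM at 20 weeks to 1.81 CPM at 8 weeks, around 0.922 ± 1.01 in LD. Chga, Vgf and Pcsk2 were read in 34, 28 and 34 libraries. Across the 54 libraries the mean standardised level of the 10 genes ran against the TMM-scaled log2 CPM of Gm32262 (Pearson r = -0.84, Spearman rho = -0.88). It ran with the TMM factor (rho = 0.88). Both levels are divided by that factor, so these values are not independent, and the part of either in the differences was not tested. No correlation of the genes with the share of Gm32262 in the counts was computed. The median share was 33.6% in LD and 35.3% to 42.8% in the SD groups.

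**Figure D3:**
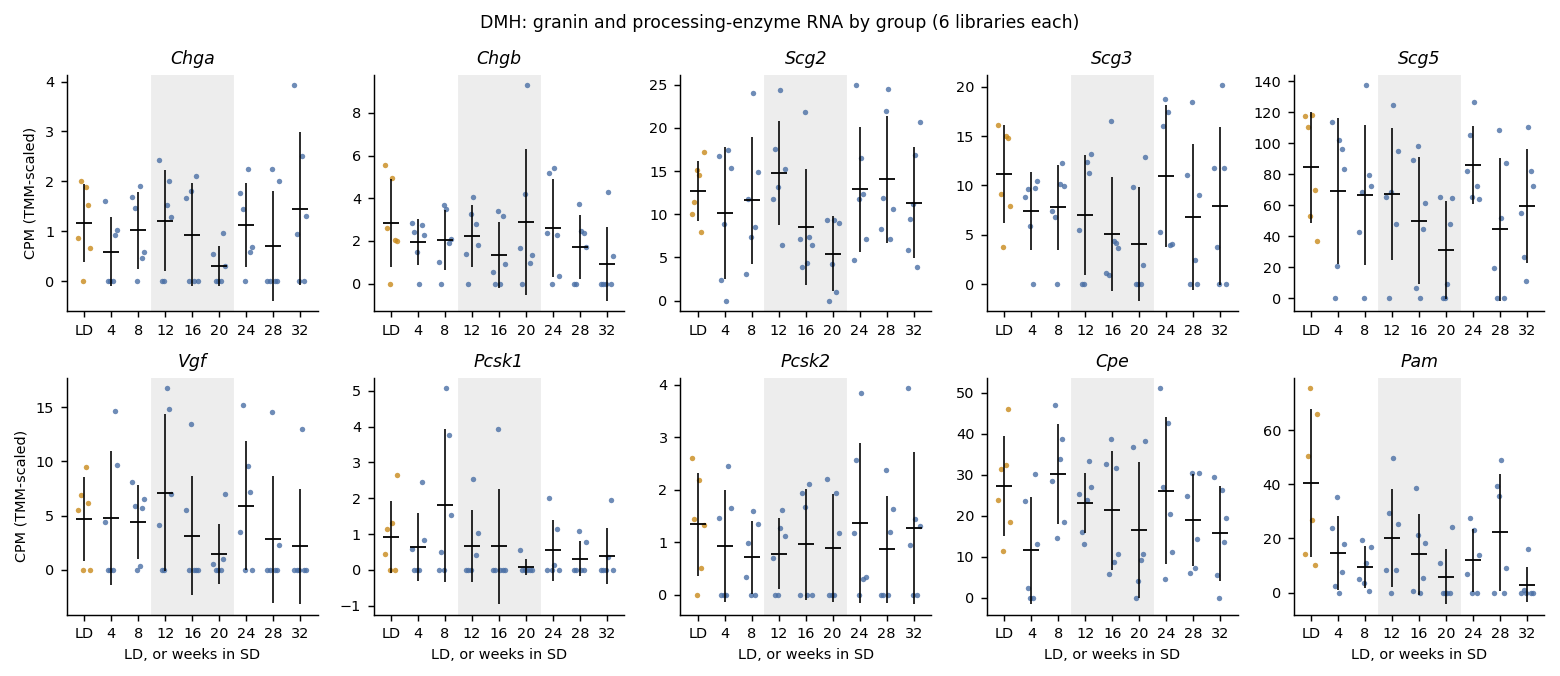
Levels of the 10 genes in the 54 DMH libraries, drawn as for the pituitary gland, with CPM on a linear y axis, points for libraries and bars for the mean ± SD of 6. Pam is highest in LD (mean 40.5 CPM) and 4 of 6 libraries are at 0 at 32 weeks, and most genes have libraries at 0 in several groups.

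The PVN table was made with other transcript identifiers, so its levels stand alone. Vgf was read in 23 of 54 libraries. It held 0, 0, 2.47, 11.2, 7.11 and 0 CPM in LD, 0 in all 6 libraries at 16 weeks, and 16.9, 2.96, 7.28, 15.6, 6.80 and 0 CPM at 20 weeks. Its highest count in a library was 7, and its fitted difference of recovery from maintenance was 1.25 log2 (95% interval 0.12 to 2.37, edgeR adjusted p = 1). The highest mean, 8.25 CPM, was that of week 20, a week of maintenance, against 3.35 to 5.84 CPM in the weeks of recovery. Chga was 122 ± 34.9 CPM at 32 weeks and 83.4 ± 56.5 in LD, where 1 library of 159 counts held none (exact p = 0.193). Chgb was lowest at 16 weeks with 90.1, 84.3, 73.5, 0, 53.6 and 58.3 CPM and highest at 20 weeks with 205.3, 77.1, 152.8, 163.5, 136 and 152.7 CPM. The 20-week mean of 148 ± 41.8 CPM did not pass against the LD mean of 92.1 ± 53.2 (exact p = 0.0628, adjusted 0.377). Without the 2 libraries under 10000 counts, left out after seeing the data, the LD mean of Chgb was 111 ± 31.5 CPM (n = 5), and the exact p was 0.126 at 20 weeks. At 16 weeks it was 0.236 with all libraries (59.97 ± 32.6 CPM) and 0.0476 without them (72.0 ± 15.9 CPM, n = 5), all unadjusted.

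The remaining PVN genes followed no phase beyond their spread. Of the 9 genes 7 had their lowest mean at 16 weeks, where the median depth was 66127 counts, the lowest of any PVN group, and 1 library held 5158 counts. The part of depth in these values was not tested. For maintenance all 9 fitted log2 differences from LD were below 0 (median -0.41, all symbols 0.00), but mean CPM did not share that direction for Chgb, Scg2, Scg3 and Cpe, each with 7 of 8 SD means above the LD mean. The LD mean holds the library of 159 counts at 0. Without that library it was 354 CPM in place of 295 for Scg2 and 111 in place of 92.1 for Chgb, and no direction is given for these genes. From maintenance to recovery all 9 fitted differences were above 0 (median 0.31, all symbols 0.00). None of them passed in induction (0% of all symbols), maintenance (0.0158%), recovery (0.00527%) or recovery against maintenance (0%). Cpe, the most evenly read enzyme there, had group means of 551 to 764 CPM, and its maintenance difference was bounded by -0.58 and 0.43 log2.

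**Figure D4:**
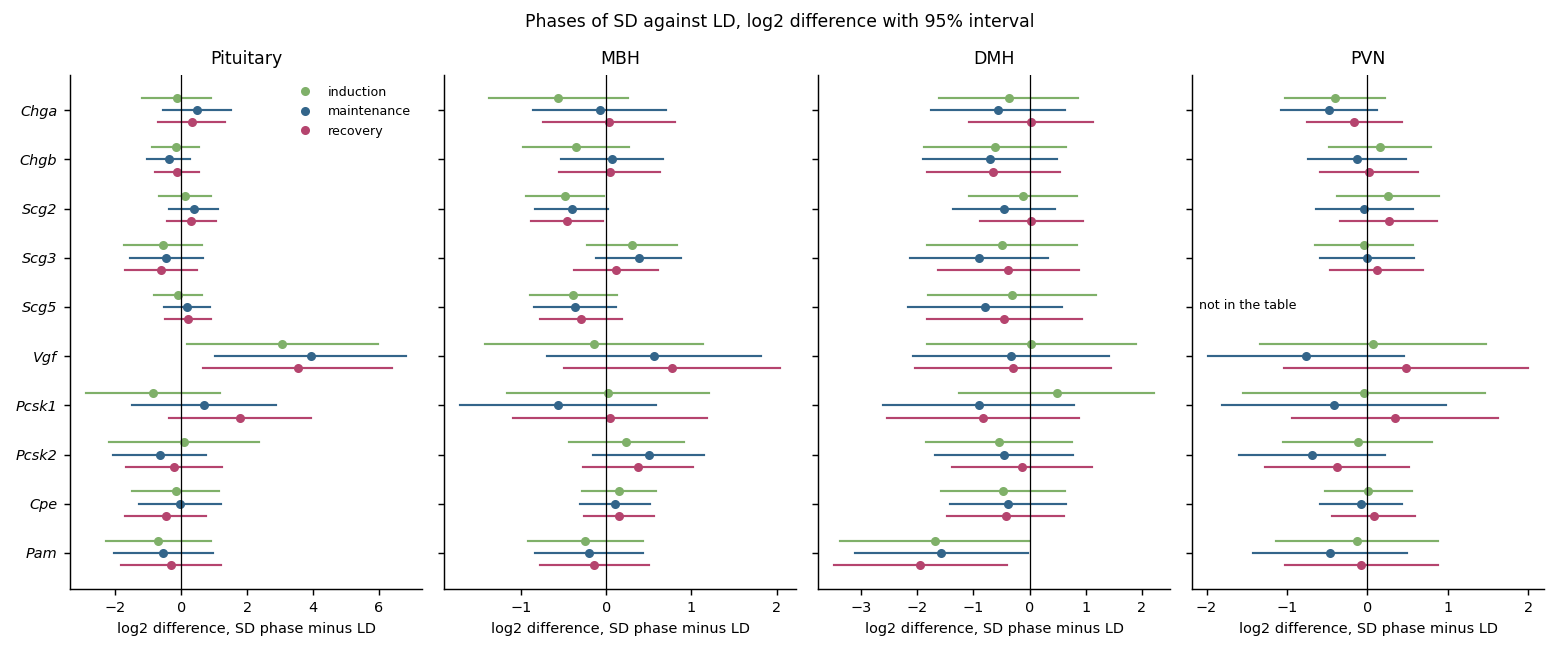
Difference of each phase of SD from LD for every gene, by tissue. The x axis is the log2 difference (phase minus LD, scales differ between panels), points are edgeR estimates over 12 or 18 SD libraries against 6 LD libraries and lines are 95% intervals. Intervals that leave 0 out are those of Vgf in the pituitary gland, Scg2 in the MBH for induction and recovery and Pam in the DMH, none of which passed after adjustment.

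From maintenance to recovery none of the 10 genes passed in the pituitary gland (0.285% of all symbols), the MBH (0.00992%) or the DMH (0%), and in the pituitary gland none passed in induction (0.0890%), maintenance (0.449%) or recovery (0.618%). Some prohormones, the cargo of the granules, passed in the same libraries. Of 20 prohormone genes in the pituitary table Prl, Gh and Penk passed over the 9 groups, as did 9.36% of all symbols. Prolactin RNA (Prl) fell by 3.70 log2 in induction (SE 0.30, edgeR adjusted p = 4.88e-15) and fell by 3.91 in maintenance (SE 0.27, adjusted p = 1.69e-19). From maintenance to recovery it rose by 3.37 log2 (SE 0.23, adjusted p = 7.50e-20). In the MBH 5 of 29 prohormone genes passed (Tshb, Prl, Nmu, Cga, Oxt), where 0.447% of all symbols did, and Tshb, the thyrotropin subunit made in the pars tuberalis, fell by 8.56 log2 in maintenance (SE 0.73, adjusted p = 4.52e-12). Neuromedin U (Nmu) fell by 4.78 log2 in recovery (SE 0.75, adjusted p = 0.00118). In the DMH 3 of 25 passed, Npy, Oxt and Tshb (4.34% of all symbols). These were read in only 15, 12 and 15 of 54 libraries. Npy, with a mean of 0.259 CPM, had a log2 difference of -3.66 in induction (SE 0.97, adjusted p = 0.0895), where the DESeq2 test called 0 of all symbols. No prohormone of 22 passed in the PVN, where 5 had an unadjusted p under 0.05.

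Of 35 other genes of the regulated secretory pathway, 5 passed over the 9 groups in the pituitary gland (9.36% of all symbols), 0 in the MBH (0.447%, 1 at an unadjusted p under 0.05), 3 in the DMH (4.34%) and 0 of 30 in the PVN (0%, 3 at an unadjusted p under 0.05). Nothing is read from these counts about the list. The pituitary genes were the convertases Pcsk5, Pcsk6 and Pcsk7, the granule GTPase Rab3d and Cadps2, which primes granules for release. None of them passed in a phase. The DMH genes were Cadps2, the GTPase Rab27a and the zinc transporter Slc30a3. Slc30a3 fell by 4.91 log2 in induction (SE 1.03, edgeR adjusted p = 0.0334) and fell by 2.79 in maintenance (SE 0.77, adjusted p = 0.0908). Cadps2 fell by 4.46 log2 in induction (SE 1.21, adjusted p = 0.0995). By the DESeq2 test 0 symbols passed in DMH induction.

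Between tissues of the same hamster the genes did differ. This was tested on isoforms present in both tables, with the hamster as a block. In the MBH against the DMH 8 of 10 genes passed, all higher in the MBH, where 37.3% of all symbols passed (34.1% higher and 3.12% lower). The median log2 difference was 0.81 for the 10 genes and 0.49 for all symbols. Chgb held a median of 10.7 CPM in the MBH and 5.07 in the DMH and was higher in the MBH in 45 of 54 hamsters, a log2 difference of 1.07 (SE 0.22, adjusted p = 0.000144). Scg2 held a median of 44.7 and 25.2 CPM and was higher in 43 hamsters, a difference of 0.77 (SE 0.17, adjusted p = 0.000452). Pam held a median of 59.9 and 24.9 CPM and was higher in 37 hamsters, with 1.37 log2 (SE 0.34, adjusted p = 0.00128).

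The remaining granins and the convertase Pcsk1 passed with smaller margins. Scg3 differed by 0.93 log2, Scg5 by 0.81, Vgf by 1.07, Chga by 0.65 and Pcsk1 by 0.81, with adjusted p between 0.0160 and 0.0733. Chgb, Scg2 and Pam were called under all 16 settings, and each of those other 5 was lost under at least 1. Pcsk2 (0.36, 95% interval -0.15 to 0.87) and Cpe (0.26, -0.17 to 0.70) did not pass. For Cpe 26 hamsters were higher in the MBH and 27 in the DMH. The neuron markers were also higher in the MBH table, where their summed median was 876 CPM against 102 in the DMH, each scaled in its own table. So were the astrocyte (523 against 82.5 CPM), oligodendrocyte (566 against 316) and blood markers (570 against 166). The part of any of these in the difference was not tested.

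In the pituitary gland against the MBH 6 of 10 genes passed, 4 higher and 2 lower, where 16.3% of all symbols were higher and 37.2% lower (53.4% in all, median -0.41). The classical granins led. Chgb held 179 to 747 CPM in the pituitary gland (median 446) and 0 to 46.7 in the MBH (median 28.9), so that no 2 libraries overlapped, and the log2 difference was 4.04 (95% interval 3.72 to 4.35, adjusted p = 9.95e-33). Chga differed by 2.53 (2.08 to 2.99) and was higher in 51 of 54 hamsters. Scg2 differed by 1.76 (1.47 to 2.04) and was higher in 53.

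The enzymes were divided. Pam was higher in the pituitary gland by 1.25 log2 (0.54 to 1.96, 42 of 54 hamsters), while Cpe held a median of 36.7 CPM there and 147 in the MBH and was lower by 2.20 (95% interval of the difference -2.61 to -1.79, 53 of 54 hamsters). Pcsk1 (0.38, -0.51 to 1.26) and Pcsk2 (-0.41, -1.04 to 0.22) did not pass, nor did Scg3 (-0.07, -0.50 to 0.35) or Scg5 (0.25, -0.04 to 0.54). Over the alternatives Scg5 ran from -0.17, which did not pass, to 1.23, which did, and Scg3 from -0.50 to 0.86, both of which passed, so no direction is given for either. Pcsk1 passed at 1.37 with the highest isoform, at 1.31 with DESeq2 size factors and at 1.18 without the hamster block. Vgf was lower by 1.40 log2 in the pituitary gland (adjusted p = 0.0405), but by 0.17 higher without the hamster block and by 0.60 higher with the highest isoform, and no direction is given for it. The study's methods name a kit without amplification for the pituitary libraries and one with amplification for the brain, whereas the labels name the kit with amplification for every tissue. If the kits did differ, kit and tissue cannot be told apart.

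**Figure D5:**
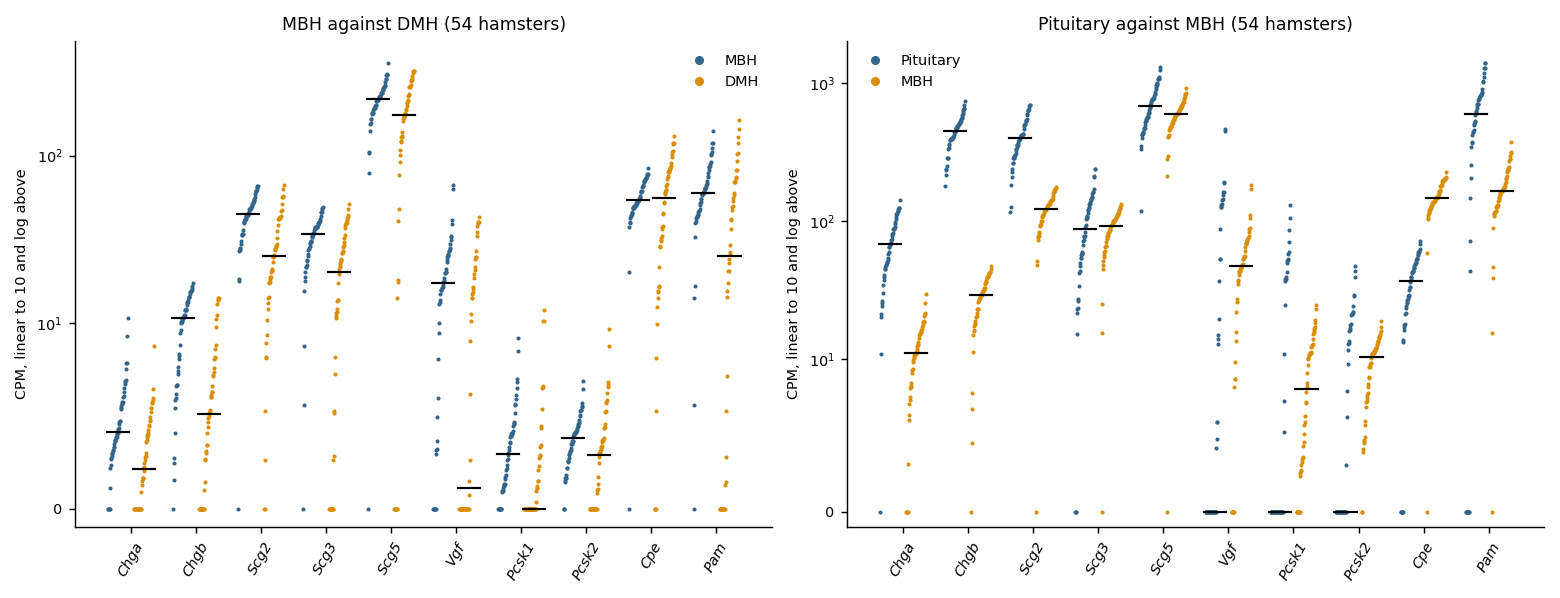
Levels in both tissues of the same 54 hamsters, MBH and DMH on the left and pituitary gland and MBH on the right. The y axis is CPM over isoforms present in both tables, linear up to 10 and logarithmic above, points are libraries in order of level within a column and bars are medians. Chgb, Chga and Scg2 stand higher in the pituitary gland than in the MBH, and Cpe stands lower.

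The difference between tissues did not vary over the 9 groups for any of the 10 genes by a test of the interaction, with 0 called by edgeR in either pair (0.605% of all symbols in MBH against DMH, 0.430% in pituitary gland against MBH) and none at an unadjusted p under 0.05. The smallest unadjusted p was 0.0618 for Pam in MBH against DMH.

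Over the 54 libraries of a tissue the median Pearson r of log2 CPM between pairs of the genes was 0.59 in the MBH, 0.43 in the DMH, 0.36 in the PVN and 0.16 in the pituitary gland. Nearly empty libraries added to these values. Without the 1 MBH, 1 DMH and 2 PVN libraries that held no count of the genes or fewer than 10000 counts, left out after seeing the data, the median r was 0.42, 0.39 and 0.29. The closest pairs were then Chgb with Vgf in the MBH (0.67), Chga with Pcsk2 in the DMH (0.75) and Chgb with Pam in the PVN (0.63). Chga with Scg2 was closest in the pituitary gland (0.62). Over all MBH libraries it had been Scg2 with Scg5 (0.93) and over all PVN libraries Scg2 with Cpe (0.76), so those values rest on the emptiest libraries. All these points share a library's depth and scaling, other gene pairs were not computed, and no test compared the tissues.

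The mean standardised level of the genes was also set beside cell-type markers. With the summed neuron markers (Snap25, Syt1, Stmn2, Rbfox3, Tubb3, Eno2) Spearman rho over 54 libraries was 0.65 in the MBH, 0.91 in the DMH and 0.69 in the PVN. Without the libraries just named it was 0.67, 0.91 and 0.68. For the pituitary gland it was 0.30, against 0.68 with the pituitary endocrine markers. In the DMH it was also 0.80 with astrocyte and 0.76 with oligodendrocyte markers, and in the MBH -0.02 and -0.08.

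The genes most like the 10 by Pearson r with their mean level were Rhbdd2 (0.95), the neuronal enolase Eno2 (0.94) and Faim2 (0.94) in the MBH and Prkar1b (0.90), Epb41l1 (0.86) and Apbb1 (0.85) in the DMH. In the PVN they included Ndfip1 and Tubb4b (0.89 each), and in the pituitary gland Rab7 (0.64), Cfl1 (0.64) and Armcx3 (0.62). Without the nearly empty libraries Rhbdd2 (0.89) still led in the MBH, followed by Atp1b1 (0.88) and Grin1 (0.87), Prkar1b (0.90) led in the DMH, and Atp6v0c (0.82) and Ndfip1 (0.81) led in the PVN. With total counts rho was 0.69 in the pituitary gland and 0.62 in the PVN, or 0.60 in the PVN without those libraries.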

How the data were processed

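Nanopore cDNA libraries of 54 hamsters were analysed in 4 tissues. Per the labels and the study's methods, the authors aligned the reads with minimap2 to a mouse genome (GRCm39) and deposited estimated counts per isoform from Salmon. The effect of differences between hamster and mouse sequence on a gene's count was not tested. The sources used here give no annotation for the PVN table. All sample columns were mapped by name. For every symbol the isoform rows were added up, rounded and scaled by TMM. The main test was edgeR 4.0.16 (R 4.3.3; glmQLFit and glmQLFTest in the legacy form), with Benjamini-Hochberg adjustment over all symbols and a threshold of 0.1, without a filter on low values. The SE was not taken from the fit but computed as the absolute log2 difference divided by the square root of the F statistic. Intervals are 95% intervals from that SE, which in sparse genes need not match the p-value of the test. Tissue pairs were scaled by TMM within each tissue and then between the pooled tissues, since their depths differed widely. TMM over all libraries of a pair at once was an alternative. The dispersion trend of the pairs was fitted on 1500 genes. DESeq2 1.42.0, other scalings, filters, isoform choices, blocks and left-out replicates were alternatives. Exact permutation tests, correlations and figures were made in Python 3.11.15 with scipy 1.17.1 and matplotlib 3.10.9. The tests were tested on simulated data.

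The members and the lists were chosen with earlier results of these data known. All 10 genes were tested in each table that holds them, but not each is described by name in every tissue. Values by library were given for 3 genes per tissue, ranked by F-test p, since none passed the threshold. From the lists of 35 secretory pathway and 30 prohormone genes at most 3 per tissue were given values, those with the smallest F-test p, and names of the others that passed. The 3 genes most like the members were taken among genes read in at least 27 libraries with a mean of at least 20 CPM. For the PVN 1 of them is not reported here. No 2 libraries of a tissue were identical in 1431 pairs. Counts are estimates from PCR-amplified or direct cDNA reads without molecular identifiers.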

Additional observations from a re-analysis of the deposited data

Results flagged for a closer look

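In 19 of the groups of 6 libraries described above, the highest or the lowest library stood apart from the others by Dixon's test. Chance alone flags about 1 in 20 such groups, and a group with 5 libraries at 0 is always flagged.

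In the pituitary gland the highest Vgf library stood apart in LD (15.3 CPM), at 8 weeks (133), at 12 weeks (148) and at 24 weeks (492). For Pcsk1 it did so in LD (38.4 CPM), at 4 weeks (56.4), at 8 weeks (5.54) and at 20 weeks (55.2). For Pcsk2 it did so in LD (47.97 CPM) and at 12 weeks (6.41).

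In the DMH the highest library stood apart for Pam at 32 weeks (16.2 CPM), for Scg2 at 16 weeks (21.8 CPM) and for Pcsk1 at 4 weeks (2.44 CPM), 16 weeks (3.92), 20 weeks (0.549) and 32 weeks (1.96). In the PVN it did so for Vgf at 12 weeks (4.45 CPM). In the MBH the lowest Scg3 library stood apart at 20 weeks (0 CPM) and at 28 weeks (20.6 CPM), the former being the library of 5996 counts.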

How the results depend on the processing

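The absence of calls within the MBH, DMH and PVN held under every alternative run there. In the pituitary gland the count over the 9 groups was 0, and 1 with the newer edgeR form, 1 with the replicate block and 0 to 1 with a replicate left out. The count for phases and for single weeks was 0, and 1 with either of the former 2. For the 32-week wave it was 0, and 1 with the newer edgeR form and 0 to 1 with a replicate left out. The gene was Vgf each time. Without replicate 2 its adjusted p over the 9 groups was 0.0304, without replicate 3 it was 0.00719, and for the wave without replicate 3 it was 0.0938. In MBH against DMH the count of 8 fell to 5 without the hamster block, to 5 without replicate 1 and to 4 without replicate 3 (4 to 7 with a replicate left out), and was 9 with DESeq2 size factors. In pituitary gland against MBH it ran from 5 to 8, and Vgf turned to 0.17 without the block and 0.60 with the highest isoform. Exact tests with p under 0.05 fell from 15 to 3 with library totals. Replicate numbers were not taken to pair hamsters across groups, since not every same-numbered pair had an r over 0.1 (43 to 105 pairs per tissue did). Their median r was 0.04 to 0.08 against -0.03 to -0.00 for other pairs, and the block changed no other call within a tissue. Among single genes 778 values kept their call and direction, 18 passed newly, 27 were lost and 2 turned. Leaving out libraries with over 50% of counts in 1 gene, and plain TMM for pairs, were added after seeing the data.

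Counts over all symbols moved more. The 9-group count of 2104 in the pituitary gland fell to 2 by the DESeq2 test, that of 90 in the MBH ran from 4 to 129, that of 948 in the DMH fell to 1 by the DESeq2 test, and that of 0 in the PVN rose to 82 with the replicate block. The convertases and Vgf were read in at most 25 of 54 pituitary libraries. For the tissue pairs the DESeq2 test was not run, and for the interaction the newer edgeR form, the fit without the block, the highest isoform, all isoforms and a threshold of 0.05 were the alternatives run. No pituitary or DMH library was under 10000 counts, so that exclusion gave no value there.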
